A study of Mus musculus with 2 samples.

Results

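YY1 binding at the genes of mitochondrial complex I was read from 2 peak lists, of adipocytes after cold exposure and at room temperature. The genes were 48 of the 21900 protein-coding genes in the RefSeq table of GRCm38.p6, taken because their symbol starts with Nduf. They comprised 6 nuclear core subunits, 30 accessory subunits, 8 assembly factors named Ndufaf, and 4 others. The 4 others were Ndufa4, whose product is now counted with complex IV, its relative Ndufa4l2, and the Ndufb4 copies Ndufb4b and Ndufb4c. A gene was said to have a peak when a summit lay inside it or within 1 kb of either end, so a summit between neighbouring genes counted for each of them.

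Complex I of the mitochondrial respiratory chain takes electrons from NADH, passes them over a row of iron-sulfur clusters to ubiquinone and pumps protons across the inner membrane. Its catalytic core is built from subunits encoded in the nucleus and others encoded by mitochondrial DNA, accessory subunits surround this core, and assembly factors put the parts together without staying in the finished enzyme. Cold exposure turns part of the inguinal fat of mice into beige fat, which burns fuel in its mitochondria. YY1 is a zinc finger transcription factor that activates or represses its targets and whose known DNA motif holds the letters AAGATGG, and nuclear genes for mitochondrial proteins are among its known targets in mouse muscle.

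The cold library came from male wild-type C57 mice after 7 days of cold stress, and the room temperature library from such mice kept at room temperature. The mice were 8 to 10 weeks old, and mature adipocytes were freed from the inguinal fat pad by collagenase and collected as the floating layer. There was 1 library per condition, and whether animals were pooled was not given in the sources used here. For this reason no difference between conditions has a replicate check and no p-value is given. ChIP-seq is the name of the assay in the sample titles. The protocol, however, is one of CUT&Tag, where an antibody guides a transposase to cut DNA beside YY1 in unfixed nuclei. The enzyme also tags some open chromatin, and such tagging cannot be told apart from YY1 binding here.

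The cold list held 1259 peaks and the room temperature list 165. The absolute depths are unknown, and the lowest backgrounds put the cold library at 1.05 times the depth of the room temperature library. The number of fragments at each summit was recovered from the deposited fold enrichment and p-value, and is given with a 95% Poisson interval that covers counting error only. Peaks of the cold list have the number 4 in their names and those of the room temperature list 30. If these numbers were housing temperatures, which no source used here says, the room temperature mice would have been kept warmer than their label states. A peak list does not measure expression and cannot test the cell type. Of the marker genes, 0 of 8 adipocyte genes, 0 of 8 macrophage genes and 0 of 8 preadipocyte or fibroblast genes had a peak in either list, which allows a share of up to 37.5% in each and so includes the shares of all protein-coding genes, 6.42% after cold and 0.863% at room temperature. Within 3 kb, 1 of 8 macrophage genes had a cold peak. Of 8 endothelial genes, Pecam1 alone had one, with 18 fragments after cold.

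The sequences at the starts of these genes are shown first, because a YY1 motif at nearly the same place recurred in them. RefSeq start windows, from 250 bases before to 50 after each transcription start, were at hand for 42 of the 48 genes. The letters AAGATGG, searched on both strands, occurred in 8 of the 42 (19%, 8.6 to 34.1), against 7.18% of all protein-coding genes. Each match lay after the start and on the strand of the gene, as did 1 in 26.8% of all protein-coding genes with a match. The Nduf windows were richer in CpG, with a median observed to expected ratio of 0.83 against 0.61. Motif shares were not compared at like CpG content. Of all protein-coding genes with a match, 27.4% had a cold peak. Of those with one after the start on the strand of the gene, 49.7% did. The 8 stretches below, of at most 30 bases of GRCm38.p6 with the match in capitals, run 5′ to 3′ on the gene's strand, and 6 belong to genes with a cold peak.
Ndufa9: cattgtgggagAAGATGGcggccgccgtcc
Ndufaf8: aggcagggcccAAGATGGcggcgccctcga
Ndufs6: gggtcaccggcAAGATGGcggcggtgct
Ndufs7: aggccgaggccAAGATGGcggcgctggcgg
Ndufs4: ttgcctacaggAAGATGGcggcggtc
Ndufc1: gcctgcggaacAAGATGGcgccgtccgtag
Ndufa3 (no peak): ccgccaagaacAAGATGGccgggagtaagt
Ndufb8 (no peak): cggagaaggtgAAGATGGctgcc

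These stretches lie at chr6:126849097-126849126 for Ndufa9 (minus strand), chr11:120098933-120098962 for Ndufaf8 (plus), chr13:73328433-73328460 for Ndufs6 (minus), chr10:80249462-80249491 for Ndufs7 (plus), chr13:114388045-114388070 for Ndufs4 (minus) and chr3:51408915-51408944 for Ndufc1 (minus). Those without a peak lie at chr7:3617384-3617413 for Ndufa3 (plus) and chr19:44555393-44555415 for Ndufb8 (minus). In 5 of the 6 genes with a peak the match ran on into ATGGCGGC. Among the other stretches, those of Ndufc1, Ndufa3 and Ndufb8, this longer run was not found. The letters ATG inside the motif can also be part of a translation start, and coding positions were not analysed here.

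The strongest complex I peak, at Ndufb5, had no AAGATGG in its window (chr3:32736813-32737112, plus strand). It is printed whole because the summit lay within it, at base −142 relative to the start. The capitals mark the 2 other forms of the YY1 motif that were searched. GCCATNTTG was matched on the opposite strand at bases −74 to −66, and ATGGCGGC on the gene's strand at bases 20 to 27.
Ndufb5: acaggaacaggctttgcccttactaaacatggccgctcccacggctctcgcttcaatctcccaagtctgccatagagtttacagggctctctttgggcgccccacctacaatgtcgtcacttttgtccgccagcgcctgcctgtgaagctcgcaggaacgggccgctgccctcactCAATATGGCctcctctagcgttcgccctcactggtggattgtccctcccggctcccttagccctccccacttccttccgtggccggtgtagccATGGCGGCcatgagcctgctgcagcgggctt

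YY1 peaks were listed at 16 of the 48 Nduf genes after cold (33.3%, exact 95% interval 20.4 to 48.4) and at 3 of 48 at room temperature (6.25%, 1.31 to 17.2). The background was 6.42% of all protein-coding genes after cold and 0.863% at room temperature. In both libraries the members' interval lay above this background. With each summit given only to its nearest gene end, this no longer held at room temperature, where 1 of 48 genes remained (2.08%, 0.0527 to 11.1, against 0.74%). After cold it was 13 of 48 (27.1%, 15.3 to 41.8, against 5.45%). The 3 room temperature genes were Ndufb5, Ndufa13 and Ndufs6, all accessory subunits, and all were listed after cold too. The same held for nearly all genes with a room temperature peak. Of 189 such protein-coding genes, 186 were in both lists, which is 0.849% of all protein-coding genes. The difference in counts between the conditions goes along with the longer cold list. Among only the 165 strongest cold peaks, as many as the room temperature list holds, 4 of the 48 genes had a peak (8.33%), against 0.904% of all protein-coding genes. They were Ndufb5, Ndufa13, Ndufa2 and Ndufb1. Each of these peaks also reached a neighbouring gene, whose end was the nearer at Ndufa13 and Ndufb1. The other settings for reach and threshold changed the counts of 16 and 3 by at most 1 gene. With summits within 500 bp or inside, 15 Nduf genes had a cold peak (background 6.14%) and 3 a room temperature peak (0.822%). With 3 kb it was 16 (6.89%) and 3 (0.913%), with the whole peak interval 16 (6.46%) and 3 (0.872%), and with gene ends alone 16 (5.63%) and 3 (0.772%). With a −log10 q of at least 3 it was 16 (6.29%) and 3 (0.74%). More bound nuclei and more binding per nucleus cannot be told apart in such libraries.

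By role, 3 of the 6 nuclear core subunits had a cold peak (50%, 11.8 to 88.2), 12 of the 30 accessory subunits (40%, 22.7 to 59.4) and 1 of the 8 assembly factors (12.5%, 0.316 to 52.7). The share of all protein-coding genes, 6.42%, lies below the core and accessory intervals and inside the assembly interval. The 3 intervals overlap widely, so with so few genes a difference between the classes was not detectable. The 4 other Nduf genes had 0 peaks, which allows a share of up to 75%. At room temperature the counts were 0 of 6 core genes, which allows up to 50%, 3 of 30 accessory genes (10%, 2.11 to 26.5) and 0 of 8 assembly genes, which allows up to 37.5%. The share of all protein-coding genes there was 0.863%, which the limits for core and assembly genes include.

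**Figure D1:**
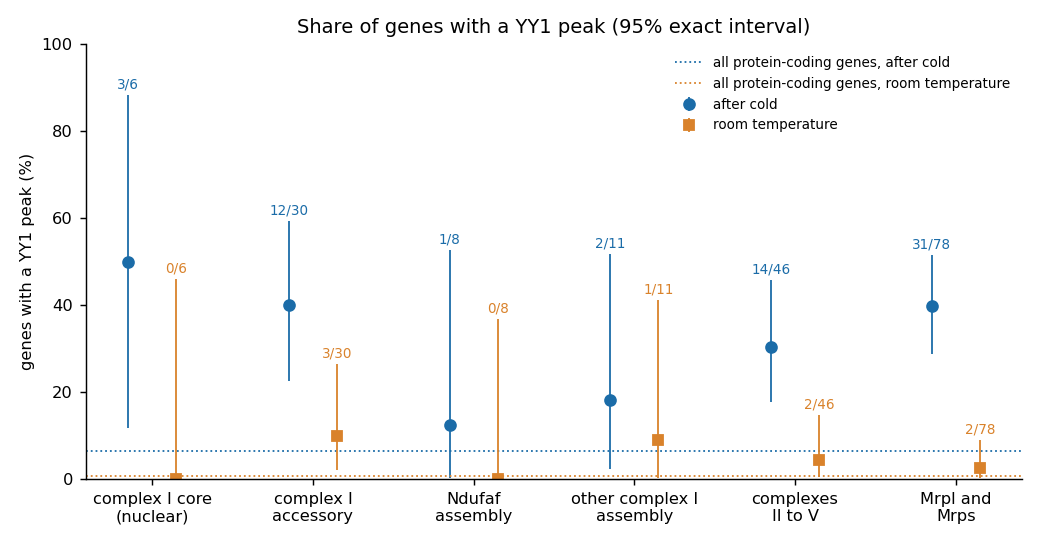
Share of genes with a YY1 peak (y axis, %) in each gene list (x axis), after cold (blue circles) and at room temperature (orange squares), with exact 95% intervals and the counts above them. Dotted lines give the share of all protein-coding genes, 6.42% after cold and 0.863% at room temperature; the cold shares of core subunits, accessory subunits, complexes II to V and mitochondrial ribosomal genes have intervals that lie above the cold line.

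Among the core subunits, peaks were listed at Ndufs3 and Ndufs7, of the ubiquinone-reducing part, and at Ndufs1, of the NADH-oxidising part. Ndufs7, whose product holds the last iron-sulfur cluster before ubiquinone, had the strongest of these, with 27 fragments after cold (17.8 to 39.3; chr10:80249309-80249726), 65 bp after its start. Ndufs3 had 15 fragments (8.4 to 24.7; chr2:90904412-90904701) and Ndufs8, which carries iron-sulfur clusters in the same part, had no listed peak.

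In the NADH-oxidising part, Ndufs1, which carries several iron-sulfur clusters, had 18 fragments after cold (10.7 to 28.4; chr1:63176475-63176791). Ndufv1, which binds NADH and its first electron acceptor FMN, and Ndufv2, its iron-sulfur partner, had no listed peak in either library. The 7 mitochondrially encoded core subunits, which form the core of the proton-pumping membrane arm, had 0 peaks, which allows up to 42.9%, and neither list held any interval on the mitochondrial chromosome. Whether reads from that chromosome were kept before peak calling was not given in the sources used here. None of the 3 core peaks was listed at room temperature. Few cold peaks of such strength were in both lists, 2.55% of all with up to 19 fragments and 11.6% of all with 20 to 39.

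Among the accessory subunits, those of the membrane arm held the strongest peak. Ndufb5, a membrane arm subunit, had 84 fragments after cold (67 to 104; chr3:32736414-32737260) and 20 at room temperature (12.2 to 30.9; chr3:32736682-32737114), the highest value of any Nduf gene in each library. Ndufa13, also known as Grim19, which spans the membrane and is needed for complex I assembly, had 49 fragments after cold (36.3 to 64.8; chr8:69901457-69901933) and 14 at room temperature (7.65 to 23.5; chr8:69901521-69901852). For both genes the 2 intervals did not overlap.

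Other membrane arm genes were listed after cold only. Ndufb1 had 46 fragments (33.7 to 61.4; chr12:101975777-101976280), Ndufb6 had 21 (13 to 32.1; chr4:40269459-40269881) and Ndufc1 had 19 (11.4 to 29.7; chr3:51408596-51409062). The Ndufb6 summit lay 943 bp beyond the end of the gene at which transcription stops, and only 69 bp after the start of Smim27.

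In the matrix arm, Ndufs6, a zinc-binding subunit, was in both lists. It had 29 fragments after cold (19.4 to 41.6; chr13:73328224-73328524) and 18 at room temperature (10.7 to 28.4; chr13:73328314-73328563), and these intervals overlapped. Ndufs4, whose loss in mice and humans gives a Leigh-like disease, had 22 fragments after cold (13.8 to 33.3; chr13:114387896-114388205). Ndufa2, a subunit with a thioredoxin-like fold, had 41 (29.4 to 55.6; chr18:36744237-36744675). Ndufa9, at the joint of the matrix and membrane arms, had 32 (21.9 to 45.2; chr6:126848915-126849251).

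Further matrix arm genes were listed after cold only, among them the 2 weakest of the 16 peaks. Ndufa6, an LYR-motif protein that docks the acyl carrier protein, had 21 fragments (13 to 32.1; chr15:82353902-82354366). Ndufa7 had 13 (6.92 to 22.2; chr17:33824269-33824868) and Ndufa5 had 11 (5.49 to 19.7; chr6:24527368-24527624), the lowest value of the 16. The accessory genes without a listed peak were Ndufa1, Ndufa3, Ndufa8, Ndufa10, Ndufa11, Ndufa12, Ndufab1, Ndufb2, Ndufb3, Ndufb4, Ndufb7, Ndufb8, Ndufb9, Ndufb10, Ndufb11, Ndufc2, Ndufs5 and Ndufv3.

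Ndufaf8 was the only one of the 8 Ndufaf genes with a listed peak, with 30 fragments after cold (20.2 to 42.8; chr11:120098821-120099172). In human cells its product stabilises NDUFAF5, whose mouse gene Ndufaf5 had no peak, and neither did Ndufaf1, Ndufaf2, Ndufaf3, Ndufaf4, Ndufaf6 or Ndufaf7. Of 11 further complex I assembly genes whose names do not start with Nduf, 2 had a cold peak (18.2%, 2.28 to 51.8) and 1 a room temperature peak (9.09%, 0.23 to 41.3). Both intervals include the share of all protein-coding genes, 6.42% after cold and 0.863% at room temperature. Dmac2, an assembly component of the distal membrane arm, had 24 fragments after cold (15.4 to 35.7) and 10 at room temperature (4.8 to 18.4). Tmem126b, a membrane protein of an early assembly complex, had 24 after cold (15.4 to 35.7). The 9 others, Ecsit, Acad9, Timmdc1, Foxred1, Nubpl, Tmem186, Dmac1, Tmem70 and Tmem126a, had no listed peak.

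**Figure D2:**
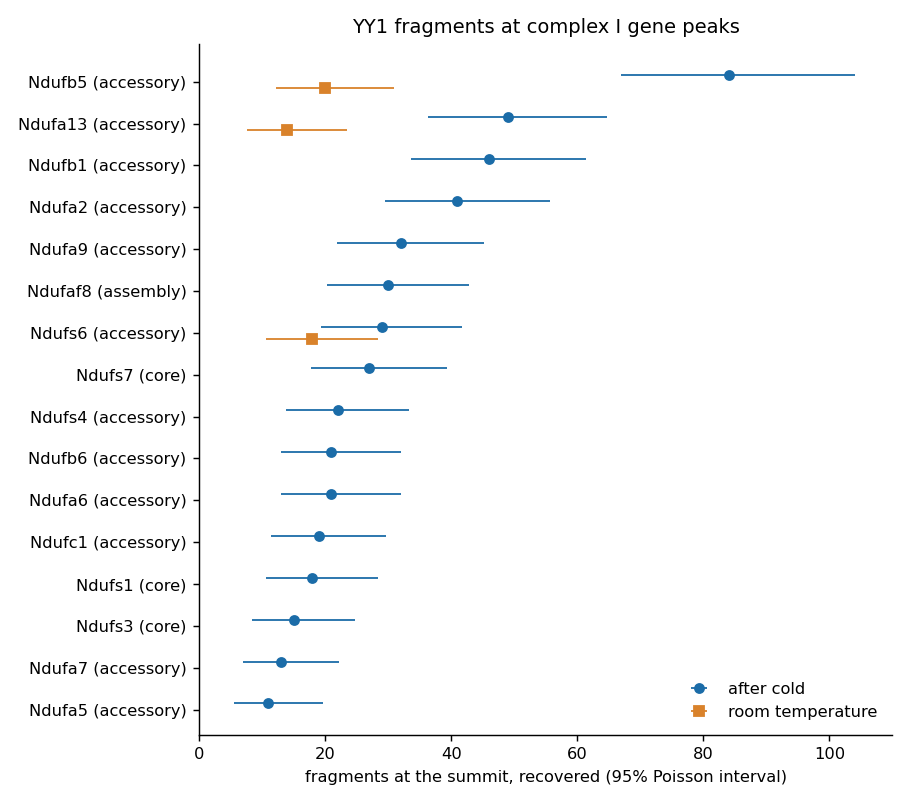
Fragments at the summit (x axis, recovered from the deposited values, with 95% Poisson intervals) at each Nduf gene with a peak, after cold (blue circles) and at room temperature (orange squares), ordered by the cold value. Cold values run from 11 at Ndufa5 to 84 at Ndufb5; a gene with no orange square had no entry in the room temperature list, which is a missing value and not a 0.

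The complex I peaks were spread over the whole range of the cold list rather than gathered at its top. Their 16 cold peaks had a median of 24.5 fragments (quartiles 18.8 and 34.3) and a median fold enrichment of 11.2 as deposited, against 20 fragments (15 and 29) and 10.5 for all 1259 cold peaks. By the authors' −log10 q, Ndufb5 ranked 20, Ndufa13 107, Ndufa2 115 and Ndufb1 131 of 1259, and Ndufa5 ranked 1195. The 3 core peaks had a median of 18 fragments (15 to 27) and the 12 accessory peaks one of 25.5 (11 to 84).

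**Figure D3:**
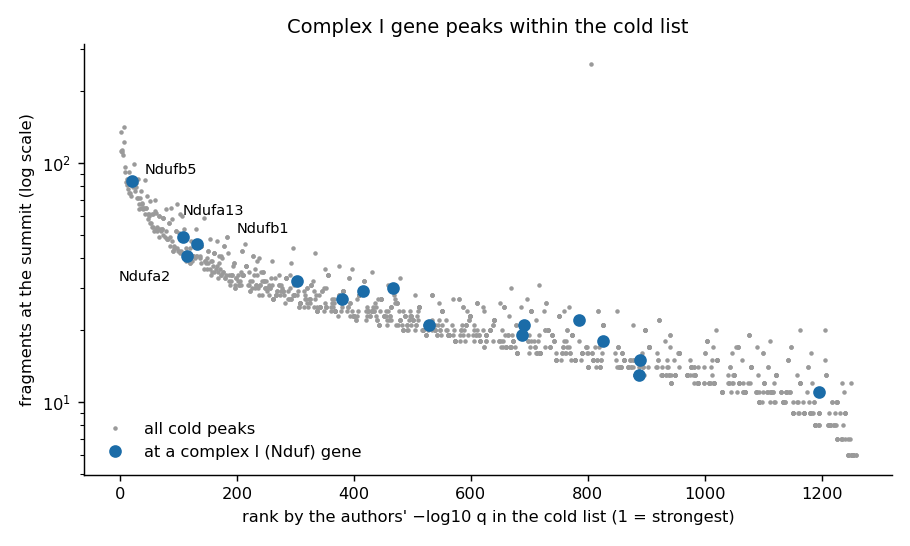
Fragments at the summit (y axis, log scale) against the rank of each peak in the cold list by the authors' −log10 q (x axis, 1 is the strongest), for all 1259 cold peaks (grey) and the 16 at Nduf genes (blue). The blue points run along the whole list, from rank 20 at Ndufb5 to rank 1195 at Ndufa5; 1 grey point with 260 fragments stands apart from the others.

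At the 3 genes listed in both libraries, more fragments were counted after cold than at room temperature. The ratio of cold to room temperature fragments was 4.2 at Ndufb5 (95% interval 2.56 to 7.22) and 3.5 at Ndufa13 (1.9 to 6.86), against a median of 3.31 (quartiles 2.63 and 4.18) at the 154 peaks of both lists whose background did not exceed 10 fragments. At Ndufs6 it was 1.61 (0.865 to 3.08), and 1.95% of these shared peaks had a lower ratio. The interval for Ndufs6 includes 1, so a change there was not detectable at this depth. The intervals of the 3 genes overlap one another. Scaling by the estimated depth ratio of 1.05 lowers each of the ratios only slightly, to 4.01, 3.34 and 1.54 in the same order.

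In all, 3 of the 16 cold peaks were shared (18.8%, 4.05 to 45.6), against 13% (11.2 to 15) of all cold peaks. The other 13 cold peaks had no room temperature entry, and their cold strength was 11 to 46 fragments with a median of 21. The lowest pileup listed at room temperature was 6 fragments, so a site below the listing threshold there has no value. The weaker a cold peak, the less often was it in both lists. With up to 19 fragments 0 of 5 peaks at Nduf genes were shared, against 2.55% of all cold peaks. With 20 to 39 fragments it was 1 of 7, against 11.6%, and with 40 to 59 fragments 1 of 3, against 44.4%.

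Many complex I genes lie close to a neighbouring gene, and their peaks often reached both. After cold, the peak also reached another protein-coding gene at 11 of the 16 genes (68.8%, 41.3 to 89), against 39.7% (37.1 to 42.3) of all 1406 protein-coding genes that had one. The lower bound for the Nduf genes is close to this share. Another gene end lay within 1 kb of an end of 30 of the 48 Nduf genes (62.5%, 47.4 to 76), against 24.8% of all protein-coding genes. Which of the genes such a peak belongs to cannot be told apart.

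Some of these neighbours encode parts of ribosomes or proteins of translation or RNA processing. How often such genes are neighbours at all cold peaks was not tested. The Ndufb5 peak lay 136 bp from Ndufb5 and 166 bp from Mrpl47, and the Ndufs6 peak 96 bp inside Ndufs6 and 117 bp from an end of Mrpl36, both genes of the mitochondrial ribosome. Rps28, of the cytosolic ribosome, was 9 bp from the Ndufa7 summit, and Eef1b2, a translation elongation factor, 215 bp from that of Ndufs1. Cpsf2, of the mRNA cleavage complex, shared the Ndufb1 peak, and the splicing factor gene Ik that of Ndufa2.

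The other shared peaks were those of Ndufaf8 with Tepsin, a gene of vesicle coats, Ndufs3 with Kbtbd4, an adaptor of ubiquitin ligases, Ndufa5 with Asb15, Ndufa13 with the testis kinase gene Tssk6, and Ndufb6 with Topors and Smim27. The summit was nearer to the neighbour's end at Ndufa13, Ndufb1 and Ndufb6. By listed starts, the neighbour was also nearer at Ndufb1 and Ndufb6, but not at Ndufa13. The Ndufa13 summit lay 326 bp from its own start and 490 bp from that of Tssk6 after cold, and 323 and 487 bp at room temperature. When each summit was counted only for its nearest protein-coding gene end, 13 Nduf genes kept a cold peak and 1, Ndufs6, a room temperature peak, where Mrpl47 was nearest at Ndufb5 and Tssk6 at Ndufa13.

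Genes with a close neighbour and genes with a CpG-rich start had peaks more often in general, and the Nduf genes were set against these too, a comparison chosen after the data were seen. Of the 18 Nduf genes with no other gene end within 1 kb, 5 had a cold peak (27.8%, 9.69 to 53.5), against 4.37% of all such genes. Of the 30 with a close neighbour, 11 did (36.7%, 19.9 to 56.1), against 12.6%. A CpG-rich start window, with an observed to expected CpG ratio of at least 0.6, was found at 35 Nduf genes. Of these 14 had a cold peak (40%, 23.9 to 57.9), against 11.7% of all genes with such a window. The 7 Nduf genes with other windows had 0, which allows up to 42.9%, against 1.5% of all such genes. Expression level was not measured, and its part in these shares was not tested.

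Genes of related mitochondrial machinery were also often bound after cold. In that library, 14 of 46 subunit genes of complexes II to V had a peak (30.4%, 17.7 to 45.8) and 31 of 78 Mrpl and Mrps genes (39.7%, 28.8 to 51.5), beside the 33.3% of Nduf genes. At room temperature the counts were 2 of 46 (4.35%, 0.531 to 14.8) and 2 of 78 (2.56%, 0.312 to 8.96), beside 3 of 48, and both intervals include the 0.863% of all protein-coding genes. Among the 165 strongest cold peaks the counts were 1 of 46 (2.17%, 0.055 to 11.5) and 2 of 78 (2.56%, 0.312 to 8.96), and both intervals include the background of 0.904%. The intervals of the lists overlap in each library, and no difference between these lists was detectable with these numbers of genes. The peak at Ndufb5 and Mrpl47 and that at Ndufs6 and Mrpl36 count in both the Nduf and the Mrpl lists.

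Most cold summits lay shortly after the transcription start. A start was known for 14 of the 16 genes, and apart from Ndufb6 their summits lay from base −310 to base 326 relative to it, with a median of 57 (quartiles 28 and 96). Of these 13 summits, 10 lay at or after the start. For all 943 cold peaks within 1 kb of a protein-coding start, the median was base 65, and 72.1% lay at or after the start. These were measured to the nearest start of any such gene. The 76.9% of Nduf summits was measured to the gene's own start, so the 2 shares are not alike. The Ndufb1 summit, for example, lay before its own start but 74 bp after that of Cpsf2. The Nduf summits before their own start were at Ndufb1 (base −310), Ndufb5 (−142) and Ndufa7 (−1). Each was also close to a start of a neighbour, Cpsf2, Mrpl47 and Rps28 in this order.

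The YY1 motif stood close to the summits of the genes that had it. From the middle of AAGATGG to the summit it was 2 bp at Ndufs4, 6 bp at Ndufc1, 30 bp at Ndufa9, 38 bp at Ndufs7, 44 bp at Ndufaf8 and 60 bp at Ndufs6. Over the 344 genes of the whole table with both a cold peak and a match in the window, the median was 43 bp (quartiles 21.8 and 64.3). The match was searched on the letters alone and is a description, not a site shown to be bound. The matches spanned bases 11 to 45 after the start, and 6 of the 8 genes with one had a cold peak (75%, 34.9 to 96.8), against 8 of the 34 without one (23.5%, 10.7 to 41.2). Over all protein-coding genes these shares were 27.4% with a match anywhere in the window and 5.08% without. With a match after the start on the strand of the gene, as in all 8 Nduf genes, the share was 49.7%. That value lies inside the Nduf interval.

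**Figure D4:**
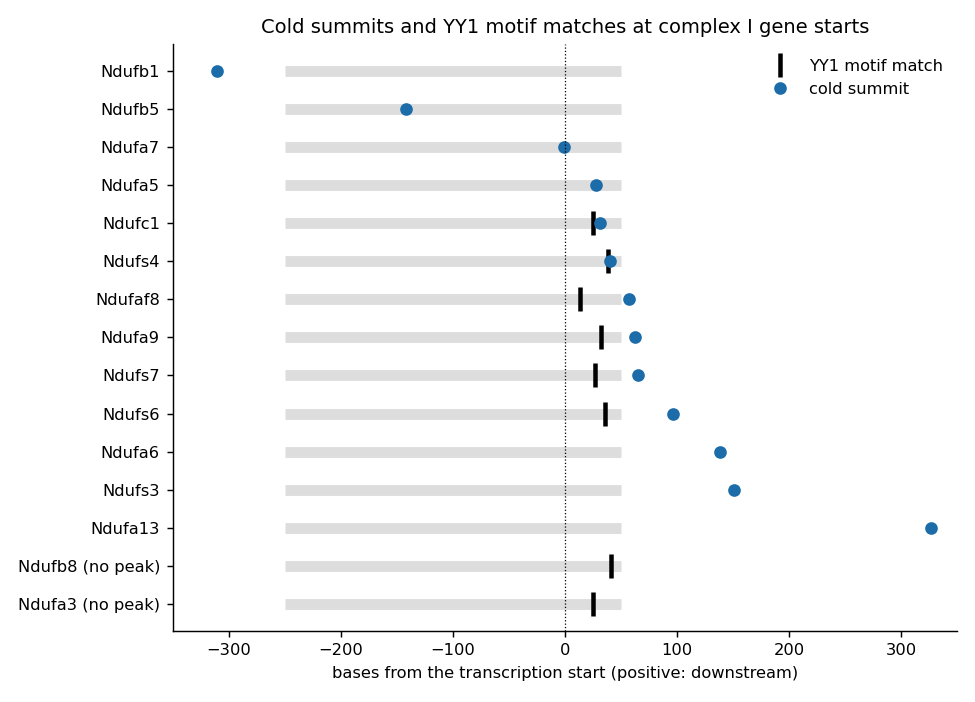
Position of the cold summit (blue circles) and of the AAGATGG match (black bars) relative to the transcription start (x axis, bases, positive in the direction of transcription) at the 13 Nduf genes with a start within 1 kb of the summit, and at the 2 genes with a match and no peak. The grey band is the window searched, from 250 bases before to 50 after the start; all 8 matches lie between bases 11 and 45 after the start.

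A match after the start on the strand of the gene, a feature chosen after the matches had been seen, was found in 8 of 42 Nduf genes (19%, 8.6 to 34.1) and in 336 of 17492 protein-coding genes (1.92%). A match anywhere in the window was held by 1256 genes of the table, and 26.8% of them had it there. Of the 336 genes, 167 had a cold peak (49.7%, 44.2 to 55.2), a higher share than the 27.4% of genes with a match anywhere.

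For each of the 3 YY1 forms, the share of Nduf genes with a match was higher among those with a cold peak than among those without, though the forms overlap and are not independent. AAGATGG was found at 6 of 14 genes with a peak (42.9%, 17.7 to 71.1) and at 2 of 28 without (7.14%, 0.877 to 23.5). ATGGCGGC, which overlaps it, was found at 7 of 14 (50%, 23 to 77) and at 0 of 28, which allows a share of up to 10.7%. GCCATNTTG was found at 5 of 14 (35.7%, 12.8 to 64.9) and at 3 of 28 (10.7%, 2.27 to 28.2). Of the 3 forms, only ATGGCGGC had exact intervals, with a peak and without one, that did not overlap, 23 to 77 and 0 to 12.3. The summit lay inside the window at only 5 of the 14 genes with a peak, and 2 of these 5 held AAGATGG. Over all protein-coding genes with a cold summit in the window, 49.9% held AAGATGG. The 14 genes include Ndufb6, whose summit lay 9773 bp from its start. Over the whole table the shares for AAGATGG were 29.5% with a cold peak and 5.59% without, and for ATGGCGGC 23.8% and 2.05%. All Nduf genes together had AAGATGG in 19% of windows, against 7.18% of all protein-coding genes, ATGGCGGC in 16.7%, against 3.5%, and GCCATNTTG in 19%, against 3.32%. These shares were not compared at like CpG content.

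Motifs of 2 other regulators of respiratory genes were searched in the same windows. The motif of NRF1 stood at 3 of 14 Nduf genes with a cold peak (21.4%, 4.66 to 50.8) and at 6 of 28 without (21.4%, 8.3 to 41), and in 7.17% of all windows. CCGGAAG, a motif of ETS factors such as GABPA, stood at 3 of 14 (21.4%, 4.66 to 50.8) and at 3 of 28 (10.7%, 2.27 to 28.2), and in 12.9% of all windows. The 3 genes with a peak and CCGGAAG include Ndufb6, whose match lay 10002 bp from its summit. For both motifs the Nduf intervals with and without a peak overlapped widely. Over all protein-coding genes the NRF1 motif stood at 14.6% of genes with a cold peak and 6.64% of those without, and CCGGAAG at 23.2% and 12.2%, so both were more frequent at genes with a peak there. Ndufs6 held both an NRF1 match and AAGATGG, and Ndufaf8 an ETS match at bases −8 to −2 together with AAGATGG. Of the 8 genes with a known start, a peak and no AAGATGG, Ndufb5 and Ndufa7 held ATGGCGGC, and the remaining 6 were Ndufa5, Ndufa6, Ndufa13, Ndufb1, Ndufb6 and Ndufs3. Of these 6, only Ndufa5 had its summit inside its own start window. For the others, the search of that window does not cover the sequence at the summit.

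**Figure D5:**
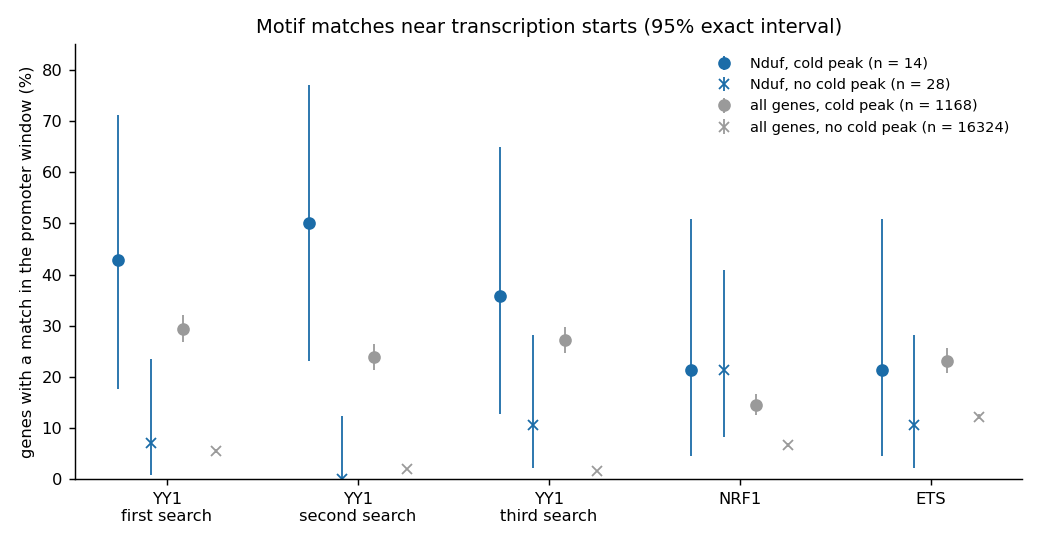
Share of genes with a motif match in the start window (y axis, %, exact 95% intervals) for Nduf genes (blue) and all protein-coding genes (grey), with a cold peak (circles) and without one (crosses). The searches from left to right are AAGATGG, ATGGCGGC, GCCATNTTG, the NRF1 motif and CCGGAAG (ETS); the Nduf shares with and without a peak are 50% and 0% for ATGGCGGC and 21.4% in both groups for NRF1.

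No Nduf gene stood near the limit of 1 kb from outside. The member nearest to it from inside was Ndufb6, with its summit 943 bp beyond the gene, and the nearest summit to any Nduf gene without a peak was 25168 bp from Ndufa3. The genes with a cold peak had a median length of 8719 bp and those without one of 6999 bp, against 17146 bp for all protein-coding genes.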

How the data were processed

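The submitters' processing notes name mm10, BWA, SAMtools, MACS2, deepTools and DESeq2. Which versions, settings, duplicate handling and control were used was not given in the sources used here. For each library there is 1 deposited peak list, whose columns hold a score made by the authors from the p-value, a deposited fold enrichment (a linear ratio over the local background), the authors' −log10 p and −log10 q, and a summit position.

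Fragments at a summit were recovered as the whole pileup for which fold = (pileup + 1) / (background + 1) and the Poisson p-value both held, with a largest miss of 0.00019 on the −log10 p scale over all 1424 entries. These steps were tested on simulated data. Shares carry exact Clopper-Pearson 95% intervals and ratios the exact interval from the binomial share of 2 counts. A share of 0 is given with the limit that 3 counts allow. All intervals cover counting error only, since fragments can include PCR copies. Peaks were shared at an overlap of 1 bp, and each room temperature peak was paired with the strongest overlapping cold summit. The depth ratio compares the lowest background divided by the smallest peak width in each list. Genes, and start windows with their strands, came from RefSeq tables of GRCm38.p6, the assembly of mm10, and coordinates are 1-based. Exons and introns were not analysed here.

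Python 3.11.15 with numpy 2.4.6, pandas 2.3.3 and scipy 1.17.1 was used. Every Nduf gene with a peak was named, save that 1 gene of the family is not reported here and was left out of all Nduf counts. The genes, lists and motifs were chosen with earlier results of these data known, and the genes whose sequences are printed after the matches were seen.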

Additional observations from a re-analysis of the deposited data

How the results depend on the processing

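Of the values recomputed under another setting, 74 stayed within their interval or within 1.5 times the reported count, and 10 moved. Among the 165 strongest cold peaks, a setting with fewer peaks by construction, 4 Nduf genes had a peak (8.33%). In the same setting the share was 0% of core, 13.3% of accessory and 0% of assembly genes, 2.17% of genes of complexes II to V and 2.56% of Mrpl and Mrps genes. With each summit given only to its nearest protein-coding gene end, which drops peaks nearer to a neighbour, 1 Nduf gene, 1 gene of complexes II to V and 1 Mrpl or Mrps gene had a room temperature peak. The cold count lost Ndufb6 within 500 bp. The settings by CpG content, by close neighbours and by the place of the motif, those of the 165 strongest peaks for shares, and those for the room temperature counts of the related lists were added after the data were seen. No paired analysis was possible because cold and room temperature have 1 library each, and no library could be left out. Depth limits what a missing entry means, since sites below the listing threshold have no value.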
